A study of Mus musculus with 203 samples.

Results

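The 9 genes described here encode complement components and receptors: C1qa, C1qb and C1qc (the chains of C1q), C4b, C3, Cfb (factor B), Cfp (properdin), C3ar1 and C5ar1 (the receptors of the fragments C3a and C5a). They were chosen by name, with earlier results of these data known, out of 43346 gene identifiers in the count table. All 9 were found and passed the filter on low counts in every fit. Their transcripts were followed in 20 groups of 10 to 12 RNA-seq libraries each from the airway or the parenchyma of mouse lung.

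All mice were female and of the Balb/C strain, and their age is labelled as 18 to 20 weeks in every group. At 3 weeks, mice had received repeated intranasal house dust mite (HDM) extract, an allergen used to model asthma, or phosphate buffered saline (PBS). At 11 weeks, mice had received HDM or PBS for longer and had in addition breathed cigarette smoke (CS), used to model chronic obstructive pulmonary disease, or normal air (AIR), and some groups were given the glucocorticoid dexamethasone (DEX) in the last week. This gives 10 exposure groups, each sampled as airway and as parenchyma: PBS and HDM at 3 weeks, and PBS.AIR, HDM.AIR, PBS.CS and HDM.CS at 11 weeks, each of these last with and without DEX. Each of the 20 groups holds 10 libraries, except PBS at 3 weeks with 11 airway and 12 parenchyma libraries. The labels do not say which airway and parenchyma libraries come from the same mouse.

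Complement is a cascade of plasma and tissue proteins that tags particles for uptake, releases fragments that recruit leukocytes and can open a pore in membranes. The classical pathway starts when C1q binds its target, upon which the proteases attached to it cleave C4 and C2; the alternative pathway is built from C3 and factor B and is stabilised by properdin; both end in cleavage of C3 and then of C5. The liver supplies most circulating complement, but C1q is largely made by macrophages and dendritic cells, properdin by leukocytes, and C3 and factor B also by epithelial cells and macrophages in the lung.

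In GENCODE M21 annotation of GRCm38 (mm10), all 9 are protein-coding genes on the minus strand. The 3 C1q genes lie side by side on chromosome 4, C1qb at chr4:136880129-136886187, C1qc at chr4:136889804-136893065 and C1qa at chr4:136895917-136898803. C4b (chr17:34728380-34743882) and Cfb (chr17:34856374-34862518) lie in the same stretch of chromosome 17, and C3 (chr17:57203970-57228136) lies apart from them. Cfp is on the X chromosome (chrX:20925454-20931555), C3ar1 at chr6:122847138-122856161 and C5ar1 at chr7:16246743-16259540. C4b has a near-identical copy, C4a, with group medians between 1.19 and 6.44 CPM (counts scaled to a common library size), and the protein-coding model Gm20547 spans Cfb on the same strand, with group medians between 0.920 and 2.67 CPM. Reads shared between such copies are split by the quantification, so the C4b and Cfb values carry that uncertainty.

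RefSeq promoter sequence (GRCm38.p6) was at hand for 6 of the 9 genes, C1qb, C1qc, C3, C3ar1, C5ar1 and Cfp, and the 250 bases before each start were searched on both strands for 4 short motifs. The stretches below, all from the minus strand and written 5′ to 3′, are shown because the C1q transcripts stayed close to a fixed proportion and C3 was the most abundant member; capitals mark GAGGAA or its reverse complement, the core bound by the myeloid factor PU.1, in the C1q genes, and TTGCNNAA, a C/EBP motif, in C3. The C1qb stretch is chr4:136886201-136886450, the C1qc stretch chr4:136893066-136893164 (bases inside the GENCODE gene are left out) and the C3 stretch chr17:57228137-57228386.
C1qb: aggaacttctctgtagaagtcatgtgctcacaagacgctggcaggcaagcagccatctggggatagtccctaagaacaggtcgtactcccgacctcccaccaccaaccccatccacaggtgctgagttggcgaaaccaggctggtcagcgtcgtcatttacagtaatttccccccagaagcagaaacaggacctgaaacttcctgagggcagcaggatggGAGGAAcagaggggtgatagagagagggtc
C1qc: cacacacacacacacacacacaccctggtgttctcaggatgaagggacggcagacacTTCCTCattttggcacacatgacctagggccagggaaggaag
C3: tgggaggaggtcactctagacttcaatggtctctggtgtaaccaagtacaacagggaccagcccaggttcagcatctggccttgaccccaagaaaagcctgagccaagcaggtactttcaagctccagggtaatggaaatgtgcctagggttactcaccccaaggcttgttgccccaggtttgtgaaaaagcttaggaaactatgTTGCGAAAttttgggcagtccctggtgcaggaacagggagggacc
GAGGAA began 30 bases before the RefSeq start of C1qb on the gene's own strand and lay further upstream of C1qc on the other strand, and 23.3% of 32851 RefSeq promoters of the same length hold it. TTGCNNAA began 45 bases before the C3 start and is found in 9.56% of those promoters. The other motifs searched were TTCNNNGAA, a motif bound by STAT factors, which no member promoter held (7.02% of all do), and an NF-kB-like motif, which C3ar1 held 14 bases before its start (4.65% of all do). These matches describe the letters only.

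The total count per library ran from 13003087 to 40240680 (median 28090612), and each member had at least 68 counts in every library. The lowest total and the lowest member count, 68 for Cfp, were both in the HDM.AIR.DEX parenchyma group. No library stood apart from its group by its rank correlation with the others, and no pair of libraries of a group differed as little as sampling noise would give. Tissue markers matched the labels at baseline: among PBS mice at 3 weeks, all 5 club cell, 5 ciliated cell and 5 smooth muscle markers were higher in airway, while all 7 alveolar type II and 6 alveolar type I markers were higher in parenchyma. Airway libraries also carried more transcript of 6 adipocyte and 5 cardiac muscle markers, all of them higher than in parenchyma. Smoke-induced genes (Cyp1a1, Cyp1b1, Ahrr, Nqo1) rose in 4 of 4 cases in both tissues of PBS.CS mice. Of 4 transcripts known to be induced by glucocorticoids, Fkbp5, Per1, Tsc22d3 and Zbtb16, none was higher in any of the 8 comparisons of DEX-treated with untreated mice; 3 of 4 were lower in DEX-treated PBS.AIR mice in each tissue and 2 of 4 in HDM.CS parenchyma. These genes thus did not show the treatment, and the dexamethasone labels are used as given. CPM values are scaled by TMM, and changes are log2 fold changes (log2FC) ± SE from limma-voom with p-values adjusted over all genes tested by the Benjamini-Hochberg method, called at adjusted p under 0.05. These are bulk tissues, in which fewer cells of a type and less RNA per cell cannot be told apart.

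Per kilobase of annotated exon, C3 had the highest and the receptors the lowest mean level in the PBS.AIR groups. In PBS.AIR airway at 11 weeks, the mean level was 148.3 CPM per kilobase for C3, 60.9 for Cfb, 59.7 for C1qa, 39.6 for C1qb, 27.1 for C4b, 23.8 for C1qc, 14.9 for Cfp, 2.79 for C5ar1 and 1.67 for C3ar1. In PBS.AIR parenchyma most were lower, with C3 at 59.3, C1qa at 32.1, Cfb at 16.3, C5ar1 at 4.75 and C3ar1 at 1.30 CPM per kilobase.

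Ordered by median CPM over the 20 groups, HDM parenchyma at 3 weeks stood first for 7 of the 9 genes. The exceptions were C3, highest in HDM airway at 3 weeks (median 2353 CPM), and C4b, highest in HDM.AIR airway at 11 weeks (median 238 CPM). The lowest group was PBS.AIR.DEX parenchyma for C1qa, C1qb, C1qc, C4b, Cfb and Cfp, PBS.AIR parenchyma for C3 and C3ar1, and PBS.AIR.DEX airway for C5ar1. The highest median exceeded the lowest 34.99-fold for Cfb, 13.7-fold for C3ar1, 12.6-fold for C1qb, 10.4-fold for C1qc, 10.2-fold for Cfp, 9.55-fold for C1qa, 8.15-fold for C3, 6.37-fold for C5ar1 and 4.02-fold for C4b. Factor B thus spanned the widest range of levels and C4b the narrowest. Neighbouring groups in this order overlapped library by library in all 19 steps for 6 genes, in 18 for C3 and C4b and in 17 for Cfp. The exceptions were the steps from PBS airway at 3 weeks down to the next group for C3, from HDM.CS.DEX parenchyma for C4b, and from HDM.AIR airway and from PBS.CS.DEX parenchyma for Cfp.

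**Figure D1:**
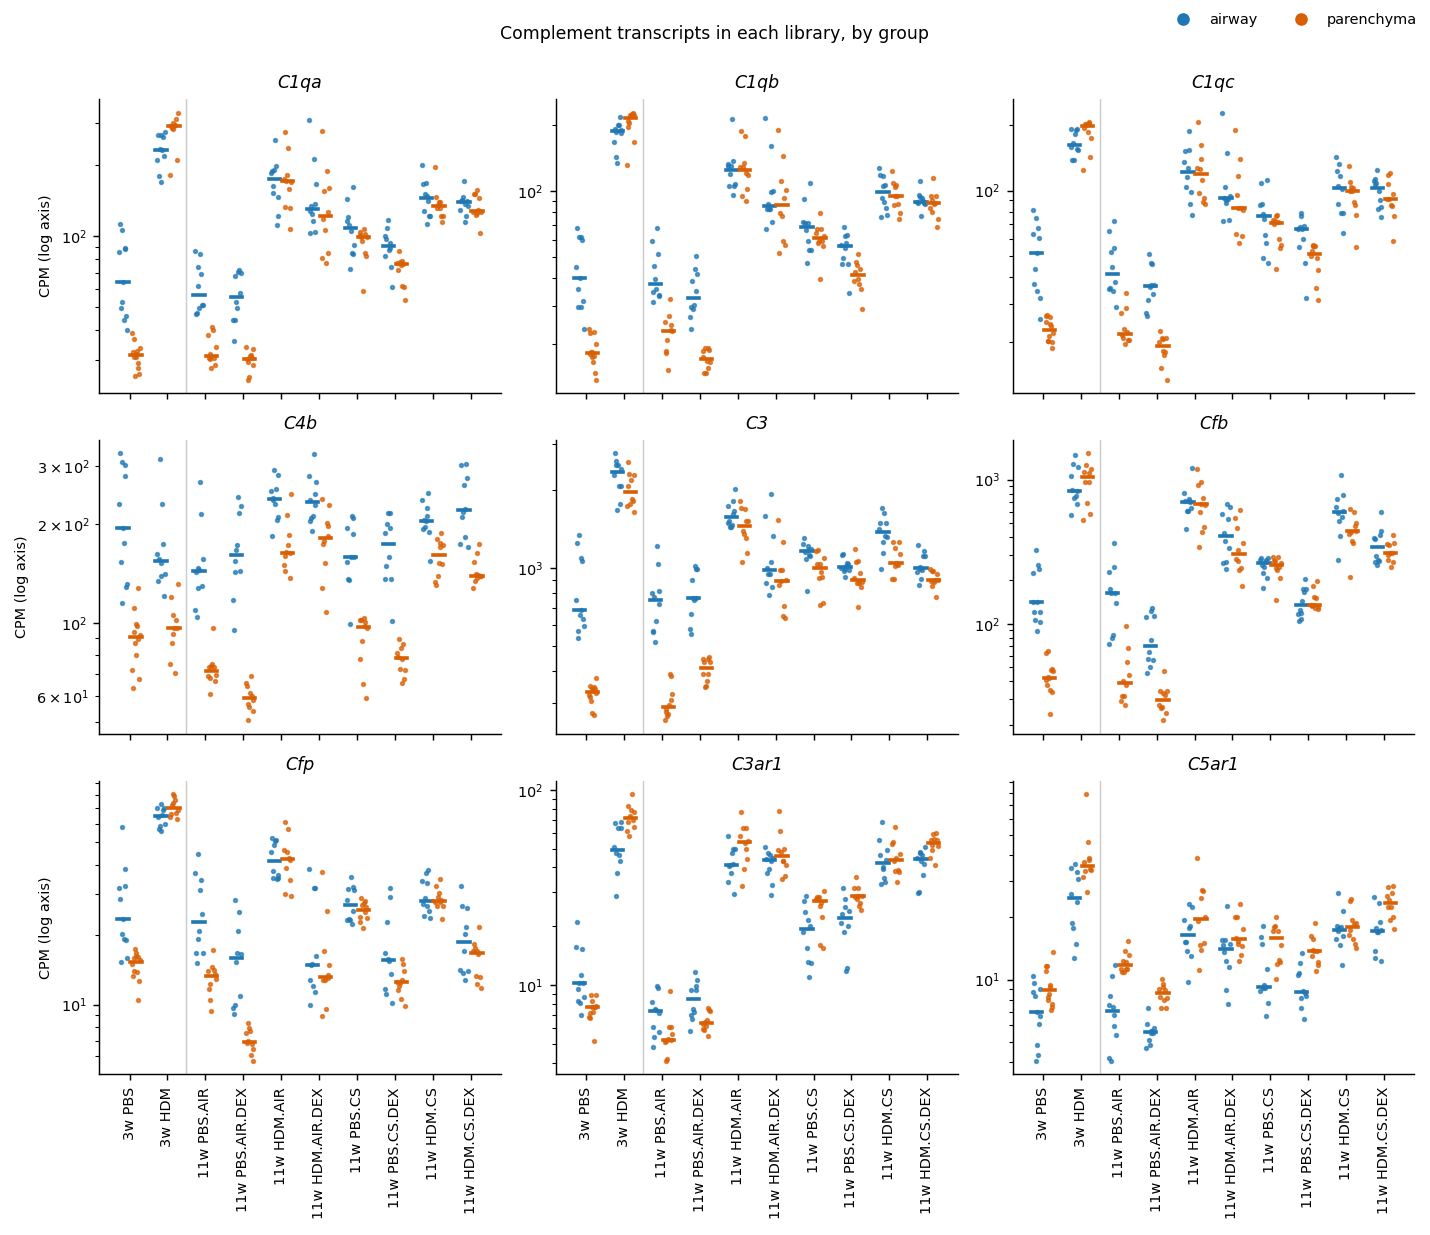
CPM of each gene (log axis) in each library, by exposure group (3w and 11w, weeks), with airway in blue and parenchyma in orange; points are libraries and bars group medians. HDM parenchyma at 3 weeks holds the highest median for 7 genes, and Cfb runs from a lowest group median of 29.6 to a highest of 1037 CPM.

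The 3 C1q chain transcripts stayed within a narrow range of proportions. C1qa to C1qb ran from 1.15 to 2.03 (median 1.503) in CPM over all libraries, and C1qc to C1qb from 0.719 to 1.47 (median 1.06), while C1qb itself ran from 13.8 to 228 CPM. Both ratios were lower with HDM at 3 weeks. C1qa to C1qb had a median of 1.25 in HDM airway against 1.60 in PBS airway at 3 weeks, and of 1.36 against 1.69 in parenchyma. C1qc to C1qb had a median of 0.928 against 1.205 in airway and of 0.918 against 1.19 in parenchyma. The proportion of C3 to C4b was far less fixed, between 2.70 and 26.1 over the libraries, with a median of 21.5 in HDM and 3.88 in PBS parenchyma at 3 weeks.

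**Figure D2:**
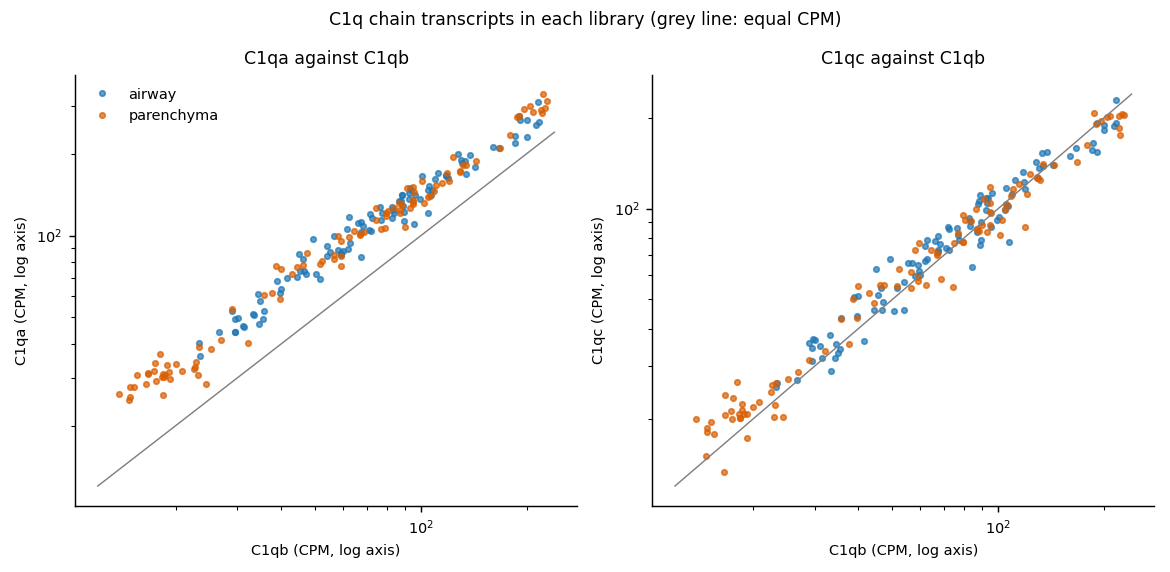
CPM of C1qa (left) and of C1qc (right) against C1qb in each library, both axes log, airway in blue and parenchyma in orange; the grey line marks equal CPM. C1qa lies above it with a median ratio of 1.503 and C1qc near it with a median ratio of 1.06.

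The first question was what HDM exposure did to complement transcripts at 3 weeks. In the airway, 8 of the 9 genes were upregulated and none fell, while 34.1% of the 17377 genes tested were called higher and 40.5% lower. In the parenchyma the same count was 8 of 9, against 33.4% higher and 44.3% lower. The exception in each tissue was C4b. The median log2FC of the 9 genes was 1.75 in airway and 2.95 in parenchyma, beside -0.07 and -0.13 over all genes tested. All 8 had a log2FC of at least 1 in each tissue, as did 12.1% of all genes in airway and 14.5% in parenchyma.

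C1qb, which forms the C1q hexamer together with its sister chains, measured 23.3 to 67.5 CPM (median 39.9) in PBS airway and 134.6 to 217 CPM (median 188.3) in HDM airway. In parenchyma it rose from 13.8 to 23.3 CPM (median 18.2) to 131.4 to 228 CPM (median 215). Every HDM library lay above every PBS library in each tissue, and the log2FC was 2.08 ± 0.14 in airway and 3.38 ± 0.16 in parenchyma. C1qa measured 25.8 to 38.9 CPM (median 31.4) in PBS and 181.6 to 331 CPM (median 291) in HDM parenchyma, and 40.2 to 112.3 CPM (median 63.7) and 169.1 to 276 CPM (median 231) in airway. C1qc measured 18.7 to 26.5 CPM (median 22.7) in PBS and 124.6 to 207 CPM (median 198.5) in HDM parenchyma, and 25.6 to 81.3 CPM (median 51.2) and 138.9 to 192.7 CPM (median 161.8) in airway. Both rose like C1qb and without overlap, with log2FC of 1.75 and 1.74 in airway and 3.07 and 2.95 in parenchyma.

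C4b, whose product follows C1q in the classical pathway, did not pass the test in either tissue. It measured 115.05 to 327 CPM (median 194.2) in PBS and 120.6 to 315 CPM (median 154.5) in HDM airway, log2FC -0.29 ± 0.17, adjusted p = 0.12, and 63.7 to 127.8 CPM (median 90.7) in PBS and 70.8 to 131.5 CPM (median 96.5) in HDM parenchyma, log2FC 0.06 ± 0.16, adjusted p = 0.738. The groups overlapped in both tissues. In airway, the lower level passed the threshold when PBS replicate 4 was left out (log2FC -0.37) and when HDM replicate 4 was left out (log2FC -0.40).

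C3, the component on which all pathways converge, measured 535 to 1340.3 CPM (median 687) in PBS and 1674 to 2767 CPM (median 2353) in HDM airway, with no overlap, log2FC 1.48 ± 0.13, adjusted p = 4.78e-13. In parenchyma it measured 269 to 374 CPM (median 332) in PBS and 1646 to 2566 CPM (median 1961) in HDM, again with no overlap, log2FC 2.57 ± 0.12, adjusted p = 1.43e-21. With HDM, C3 thus reached much the same range in both tissues.

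Factor B, the protease of the alternative pathway convertase, showed the largest change of the 9 in both tissues. Cfb measured 23.7 to 64.5 CPM (median 42.4) in PBS and 524 to 1521 CPM (median 1037) in HDM parenchyma, a 21.3-fold rise (log2FC 4.41 ± 0.21, adjusted p = 1.66e-21). In airway it measured 88.7 to 325 CPM (median 141.2) in PBS and 567 to 1483 CPM (median 838) in HDM, a 5.73-fold rise (log2FC 2.52 ± 0.22, adjusted p = 1.37e-13). The groups were fully separate in each tissue. Properdin, which stabilises that convertase, rose less: Cfp measured 15.2 to 57.9 CPM (median 23.5) in PBS and 55.7 to 72.7 CPM (median 64.8) in HDM airway, where 8 of 10 HDM libraries lay above every PBS library (log2FC 1.30 ± 0.13, adjusted p = 2.19e-11). In parenchyma, Cfp measured 10.5 to 17.3 CPM (median 15.3) in PBS and 62.7 to 80.5 CPM (median 70.4) in HDM, without overlap (log2FC 2.21 ± 0.15, adjusted p = 7.97e-17).

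Of the receptors, C3ar1, the G protein-coupled receptor of C3a, measured 7.02 to 21.005 CPM (median 10.2) in PBS and 28.4 to 68.2 CPM (median 49.2) in HDM airway (log2FC 2.16 ± 0.14, adjusted p = 8.36e-17). In parenchyma it measured 5.14 to 8.91 CPM (median 7.70) in PBS and 57.7 to 94.96 CPM (median 71.8) in HDM (log2FC 3.20 ± 0.17, adjusted p = 1.76e-20). Neither pair of groups overlapped. C5ar1, the C5a receptor of neutrophils and macrophages, measured 4.03 to 10.4 CPM (median 6.97) in PBS and 12.8 to 36.3 CPM (median 24.9) in HDM airway (log2FC 1.75 ± 0.20, adjusted p = 4.20e-10), and 7.15 to 13.5 CPM (median 8.87) in PBS and 26.5 to 78.9 CPM (median 35.5) in HDM parenchyma (log2FC 1.97 ± 0.19, adjusted p = 3.49e-12). Its groups were separate too, the HDM parenchyma library with 78.9 CPM standing well above the other HDM libraries.

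In counting the groups without overlap, 7 members in airway and 8 in parenchyma had every HDM library above every PBS library, while 11.7% and 20.3% of all genes did. Markers of some leukocytes moved with them. All 10 macrophage markers (Adgre1, Csf1r, Mertk and others) and all 9 neutrophil markers were higher with HDM in each tissue. Sums of markers add their CPM, so the most abundant markers weigh most. The summed macrophage markers ranged from 6255 to 11361 CPM in PBS and from 17215 to 23971 CPM in HDM parenchyma, and in airway from 4239.9 to 7204 and from 7904 to 23525 CPM. The summed neutrophil markers ranged from 344 to 619 CPM in PBS and from 1227 to 3824 CPM in HDM parenchyma, and in airway from 104.7 to 359 and from 528 to 1478 CPM. All 6 markers of B cells and follicular dendritic cells were higher in airway and 5 of 6 in parenchyma. Other leukocyte lists did not move as a whole: of 7 markers of interstitial macrophages and monocytes 2 were higher and 2 lower in each tissue, their sum ranging over 295 to 489 CPM in PBS and 316 to 453 CPM in HDM airway, and over 418 to 567 and 337 to 519.9 CPM in parenchyma. Of 8 alveolar macrophage markers, 3 were higher and 2 lower in airway and 4 higher and 1 lower in parenchyma, and of 5 eosinophil markers tested, 3 and 2 were higher. No macrophage or neutrophil marker had a median of 0 in these groups, although the neutrophil markers Ly6g, Camp and Ngp were low, reaching at most 9.01 CPM (Ngp) in any library of the series. The part of these cells in the changes was not tested. Hepatocyte transcripts were at or near 0 throughout: the 5 markers Alb, Apoa1, Fga, Fgb and Ttr together reached at most 2.24 CPM in any library of the series, and Fgb had a median of 0 in every group.

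**Figure D3:**
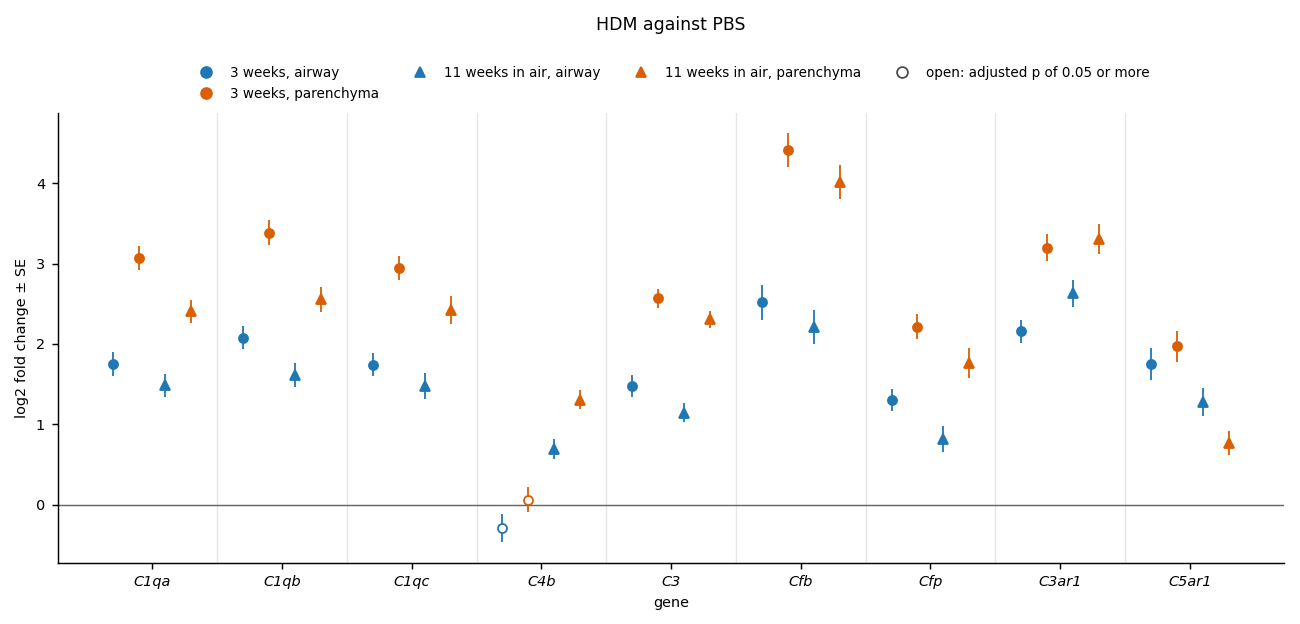
log2 fold change ± SE of HDM against PBS for each gene at 3 weeks (circles) and at 11 weeks in air (triangles), airway in blue and parenchyma in orange; open symbols have an adjusted p of 0.05 or more. Cfb has the largest change in every tissue and time except airway at 11 weeks, where C3ar1 is higher at 2.63, and C4b at 3 weeks is the only gene with open symbols.

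The next question was whether the tissues differed before exposure. Without HDM or smoke, most of the 9 transcripts were more abundant in airway. In PBS mice at 3 weeks, 8 of the 9 genes were higher in airway than in parenchyma, against 24.3% of all genes, and none was lower, against 31.7%. Groups did not overlap for C1qa, C1qb, C3 and Cfb, against 6.99% of all genes. In PBS.AIR mice at 11 weeks, 7 were higher and 1 lower, against 26.3% and 30.1%, and C1qa, C3 and C4b did not overlap, against 10.3%. Factor B differed most, 1.87 ± 0.18 at 3 weeks and 1.89 ± 0.19 at 11 weeks on the log2 scale. C3 followed with 1.30 and 1.33, both without overlap, and C4b differed by 1.18 and 1.08, without overlap at 11 weeks only. The C1q chains differed by 1.10 (C1qa), 1.196 (C1qb) and 1.12 (C1qc) at 3 weeks. C3ar1 was higher in airway at 3 weeks (log2FC 0.56 ± 0.18, adjusted p = 0.00859) and did not pass at 11 weeks (log2FC 0.37 ± 0.22, adjusted p = 0.134), and C5ar1 was lower in airway at 11 weeks (log2FC -0.80 ± 0.18, adjusted p = 7.12e-05) with a value of -0.42 that did not pass at 3 weeks. With edgeR and with DESeq2 C3ar1 did pass at 11 weeks. Markers of other cell types also differed between the tissues: summed adipocyte markers ranged from 48.1 to 280.5 CPM in PBS airway and from 11.0 to 21.7 CPM in PBS parenchyma at 3 weeks, and of the 10 macrophage markers 2 were higher and 2 lower in airway. Their part was not tested.

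The HDM response was larger in parenchyma. The difference of the HDM effect, airway less parenchyma, was below 0 and past the threshold for 7 of the 9 genes at 3 weeks, against 6.43% of all genes. It was -1.89 ± 0.30 for Cfb, -1.32 for C1qa, -1.31 for C1qb, -1.21 for C1qc, -1.09 for C3, -1.04 for C3ar1 and -0.91 for Cfp. C4b (log2FC -0.35 ± 0.24, adjusted p = 0.311) and C5ar1 (log2FC -0.22 ± 0.28, adjusted p = 0.628) did not pass. At 11 weeks in air, a comparison added after the data were seen, 8 of the 9 had a smaller HDM effect in airway, against 14.9% of all genes, from -1.80 for Cfb to -0.62 for C4b, and C5ar1 did not pass (log2FC 0.51 ± 0.23, adjusted p = 0.0828). The call of C3ar1 there (log2FC -0.68 ± 0.25, adjusted p = 0.0318) was lost in 5 of 160 fits that each left out a library and with the higher filter on low counts. These differences share the PBS libraries with the tissue differences above, and the tissues ended close to each other: at 3 weeks with HDM, the median of C3 was 2353 CPM in airway and 1961 in parenchyma, that of Cfb 838 and 1037, and that of C1qb 188.3 and 215.

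At 11 weeks, HDM in air upregulated all 9 genes in each tissue, while 31.3% of the 18250 genes tested were called higher in airway and 32.6% in parenchyma. The median log2FC of the 9 was 1.47 in airway and 2.40 in parenchyma, beside 0.00 and 0.05 over all genes. Groups did not overlap for 6 members in airway, against 10.5% of all genes, and for 8 in parenchyma, against 11.8%. Among the C1q chains, C1qb measured 15.2 to 32.1 CPM (median 23.01) in PBS.AIR and 89.8 to 188.1 CPM (median 124.7) in HDM.AIR parenchyma (log2FC 2.56 ± 0.16, adjusted p = 3.37e-32), and 31.1 to 67.5 CPM (median 37.6) and 95.6 to 213 CPM (median 124.7) in the airway groups (log2FC 1.61 ± 0.15, adjusted p = 3.57e-19). The airway group contained a library, replicate 6, that lay far above the others. C4b, unlike at 3 weeks, rose: it measured 60.8 to 96.5 CPM (median 71.4) in PBS.AIR and 137.1 to 247 CPM (median 163.6) in HDM.AIR parenchyma, without overlap (log2FC 1.31 ± 0.12, adjusted p = 2.94e-19). In airway it measured 104.1 to 268 CPM (median 143.8) and 183.5 to 291 CPM (median 238), and the groups overlapped (log2FC 0.69 ± 0.13, adjusted p = 6.16e-07).

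C3 measured 257 to 388 CPM (median 289) in PBS.AIR and 1054 to 1809 CPM (median 1449) in HDM.AIR parenchyma (log2FC 2.30 ± 0.11, adjusted p = 5.92e-43), and Cfb 27.5 to 96.97 CPM (median 39.04) and 341 to 1179.7 CPM (median 674) (log2FC 4.01 ± 0.21, adjusted p = 6.40e-39). Both were fully separate in this tissue, and in airway their log2FC were 1.14 ± 0.12 and 2.21 ± 0.21. C3ar1 measured 4.82 to 9.86 CPM (median 7.33) in PBS.AIR and 29.3 to 57.8 CPM (median 41.3) in HDM.AIR airway (log2FC 2.63 ± 0.17, adjusted p = 4.70e-31), and 4.07 to 9.28 CPM (median 5.25) and 31.99 to 77.2 CPM (median 53.9) in parenchyma (log2FC 3.31 ± 0.19, adjusted p = 4.67e-36). The receptor of C3a was thus the member with the largest airway change. Cfp measured 15.1 to 44.3 CPM (median 22.6) in PBS.AIR and 34.6 to 52.3 CPM (median 41.3) in HDM.AIR airway, and C5ar1 4.05 to 11.8 CPM (median 7.06) and 9.76 to 23.1 CPM (median 16.5). In parenchyma, C5ar1 measured 10.9 to 15.4 CPM (median 11.7) in PBS.AIR and 11.2 to 38.6 CPM (median 19.7) in HDM.AIR, and these groups overlapped. Cfp rose by 0.82 ± 0.16 in airway and 1.76 ± 0.18 in parenchyma, and C5ar1 by 1.28 ± 0.17 and 0.76 ± 0.15 on the log2 scale. Macrophage markers were again higher, 10 of 10 in airway and 9 of 10 in parenchyma, and neutrophil markers 9 of 9 and 6 of 9. Interstitial macrophage and monocyte markers moved both ways, with 3 of 7 higher and 4 lower in airway and 3 higher and 3 lower in parenchyma. In parenchyma, the summed macrophage markers ranged from 6269.7 to 10294 CPM in PBS.AIR and from 12744 to 21226 CPM in HDM.AIR, and in airway from 4014 to 8221 and from 10709.5 to 17310.3 CPM. Their part was not tested.

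Comparing the HDM effect at 11 weeks in air with that at 3 weeks, in a fit of all libraries, C4b was the member whose effect was larger at 11 weeks in both tissues. Its HDM effect was larger at 11 weeks by 0.93 ± 0.19 in airway and 1.12 ± 0.18 in parenchyma, where 14.5% and 21.5% of all genes were called higher. In parenchyma, 6 members had a smaller effect at 11 weeks, against 20.9% of all genes: C5ar1 (-1.33 ± 0.23), C1qb (-0.95 ± 0.23), C1qa (-0.79), C1qc (-0.65), Cfp (-0.58 ± 0.25) and C3 (-0.39 ± 0.16). In airway, C1qb was the only member called lower (-0.52 ± 0.21), against 13.9% of all genes, but under other settings Cfp passed there in 3 of 7, C5ar1 in 3 and C3 in 1. The call for C1qb in airway was lost in 22 of the fits that each left out a library and under 4 of 7 other settings, that for Cfp in parenchyma in 24 and under 5, and that for C3 in parenchyma in 9 and under 2. The time points differ in the length of HDM exposure, and only the 11-week mice compared here are labelled with an air exposure. These cannot be told apart.

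Cigarette smoke without HDM also raised most of the 9 transcripts in both tissues. In PBS.CS against PBS.AIR parenchyma 8 of the 9 genes were higher and none lower, against 17.7% and 18.2% of all genes. Groups did not overlap for 7 of them, against 5.16% of all genes. Cfb rose most, from 27.5 to 96.97 CPM (median 39.04) to 146.5 to 289.9 CPM (median 255) (log2FC 2.53 ± 0.20, adjusted p = 3.35e-23), followed by C3ar1 with 15.5 to 30.1 CPM (median 26.9) in smoke-exposed mice (log2FC 2.15 ± 0.19, adjusted p = 3.35e-19) and C3 with 718 to 1168 CPM (median 997) (log2FC 1.68 ± 0.11, adjusted p = 4.39e-30). The C1q chains rose together by 1.49 (C1qa), 1.46 (C1qb) and 1.49 (C1qc), and Cfp by 0.99 ± 0.19. C4b passed narrowly (log2FC 0.30 ± 0.12, adjusted p = 0.0352), its call being lost when any of 8 single libraries was left out. The C4b call was also lost without a filter on low counts and with all libraries in one fit (adjusted p = 0.0933 and 0.0754). C5ar1 did not pass (log2FC 0.30 ± 0.16, adjusted p = 0.14), although it did with library quality weights (log2FC 0.36, adjusted p = 0.0161).

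In airway, smoke without HDM raised 7 of the 9, against 7.66% of all genes called higher. C3ar1 was the only member without overlap, measuring 11.0 to 28.5 CPM (median 19.3) against 4.82 to 9.86 CPM (median 7.33) (log2FC 1.39 ± 0.17, adjusted p = 1.50e-10), where 0.647% of all genes did not overlap. The other 6 had log2FC between 0.60 (C3) and 0.80 (C1qa), and Cfb (log2FC 0.69 ± 0.20, adjusted p = 0.00956) was not called with edgeR or DESeq2. C4b (log2FC 0.10 ± 0.12, adjusted p = 0.663) and Cfp (log2FC 0.16 ± 0.16, adjusted p = 0.594) did not pass. Macrophage markers were higher with smoke for 8 of 10 genes in each tissue, and neutrophil markers for 8 of 9 in airway and 7 of 9 in parenchyma, while 1 of 7 interstitial macrophage and monocyte markers was higher in each; the summed macrophage markers in PBS.CS ranged from 10705 to 20625 CPM in parenchyma and from 7083 to 10551 CPM in airway. Their part was not tested.

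When smoke and HDM were combined, the HDM effect on most members was smaller than in air. The change that HDM made under smoke, HDM.CS against PBS.CS, passed upward for 7 of the 9 genes in airway and 6 in parenchyma, against 17.5% and 7.52% of all genes. The changes were small beside those in air: in parenchyma Cfb rose by 0.84 ± 0.21, C3ar1 by 0.91 ± 0.13, C4b by 0.87 ± 0.12 and C1qb by 0.68 ± 0.15, while C3 (log2FC 0.18 ± 0.11, adjusted p = 0.388), Cfp (log2FC 0.19 ± 0.17, adjusted p = 0.568) and C5ar1 (log2FC 0.31 ± 0.15, adjusted p = 0.192) did not pass. C1qa, C4b and C3ar1 had separate groups there, against 2.34% of all genes. In airway, Cfb and C3ar1 rose by 1.26 ± 0.22 and 1.26 ± 0.14, C5ar1 by 0.75 ± 0.15, with separate groups for C3ar1 alone, against 2.59% of all genes. C3 (log2FC 0.28 ± 0.12, adjusted p = 0.0533) and Cfp (log2FC 0.12 ± 0.16, adjusted p = 0.615) did not pass. The airway calls of C1qc and C4b were each lost when a single PBS.CS library was left out, replicate 10 for C1qc (log2FC 0.40) and replicate 5 for C4b (log2FC 0.29), and C3 passed under 3 of 8 other settings.

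The interaction of HDM and smoke, the difference between the HDM effect under smoke and that in air, was below 0 and past the threshold for 8 of the 9 genes in parenchyma, against 18.7% of all genes, and for 7 in airway, against 11.4%. In parenchyma it was -3.17 ± 0.30 for Cfb, -2.39 ± 0.23 for C3ar1, -2.13 ± 0.16 for C3, between -1.88 (C1qb) and -1.82 (C1qa) for the C1q chains, and -1.57 ± 0.25 for Cfp. In airway it ran from -1.37 ± 0.22 for C3ar1 to -0.70 ± 0.23 for Cfp among those past the threshold. C4b passed in parenchyma (log2FC -0.44 ± 0.17, adjusted p = 0.0321) and not in airway (log2FC -0.32 ± 0.18, adjusted p = 0.202), and its parenchyma call was lost without HDM.AIR replicate 10, HDM.AIR replicate 5 or HDM.CS replicate 2 (log2FC -0.38, -0.40 and -0.41), without a filter on low counts and with all libraries in one fit. C5ar1 did not pass in either tissue (log2FC -0.53 ± 0.23, adjusted p = 0.0938 in airway, log2FC -0.45 ± 0.21, adjusted p = 0.0865 in parenchyma), although it did in parenchyma with library quality weights, edgeR and DESeq2. The airway call of Cfp was lost with edgeR, with DESeq2 and when each tissue was fitted on its own. The HDM effect in air and the smoke effect share the PBS.AIR libraries.

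The levels show where the interaction sits. In parenchyma the median of Cfb was 39.04 CPM in PBS.AIR, 255 in PBS.CS, 674 in HDM.AIR and 437 in HDM.CS. That of C3 was 289, 997, 1449 and 1040.4 CPM, and that of C1qa 31.2, 99.02, 170.1 and 133.6 CPM. HDM.CS thus lay between PBS.CS and HDM.AIR for all 3. C4b had medians of 71.4, 97.3, 163.6 and 161.1 CPM in the same order. C3ar1 had medians of 5.25, 26.9, 53.9 and 43.9 CPM, and C5ar1 of 11.7, 16.0, 19.7 and 18.0 CPM. Individual HDM.CS parenchyma libraries ran from 212 to 628 CPM for Cfb, from 905 to 1262 for C3 and from 33.6 to 64.4 for C3ar1. In airway the span between the groups was smaller: the median of Cfb was 164.02 CPM in PBS.AIR, 262 in PBS.CS, 704 in HDM.AIR and 599.6 in HDM.CS, and that of C3 749, 1158, 1565 and 1369 CPM. The direct comparison of HDM.CS with HDM.AIR gave lower levels in parenchyma for Cfb (log2FC -0.64 ± 0.22, adjusted p = 0.0248), Cfp (log2FC -0.58 ± 0.16, adjusted p = 0.00354), C3 (log2FC -0.44 ± 0.12, adjusted p = 0.00229) and C1qb (log2FC -0.42 ± 0.15, adjusted p = 0.0249), against 14.1% of all genes called lower. In airway, Cfp alone was lower (log2FC -0.54 ± 0.16, adjusted p = 0.00946), against 10.1%. No member was called higher in HDM.CS than in HDM.AIR in either tissue, where 10.0% of all genes were in parenchyma and 6.07% in airway. The parenchyma call of C1qb was lost without HDM.AIR replicate 2, HDM.AIR replicate 6 or HDM.CS replicate 9 (log2FC -0.36, -0.37 and -0.38), and that of Cfb without HDM.AIR replicate 1, HDM.AIR replicate 6 or HDM.CS replicate 3 (log2FC -0.54, -0.58 and -0.53), so that 3 of the 5 calls over both tissues remained without HDM.AIR parenchyma replicate 6. Of the 10 macrophage markers, 8 also had an interaction below 0 in each tissue, as did 7 of 9 neutrophil markers in parenchyma and 6 of 9 in airway. Interstitial macrophage and monocyte markers had both signs, 2 of 7 above 0 in each tissue and 2 in airway and 3 in parenchyma below. The summed macrophage markers in HDM.CS ranged from 12378 to 19534 CPM in parenchyma and from 11407 to 18209.9 CPM in airway. Their part in the interaction was not tested.

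**Figure D4:**
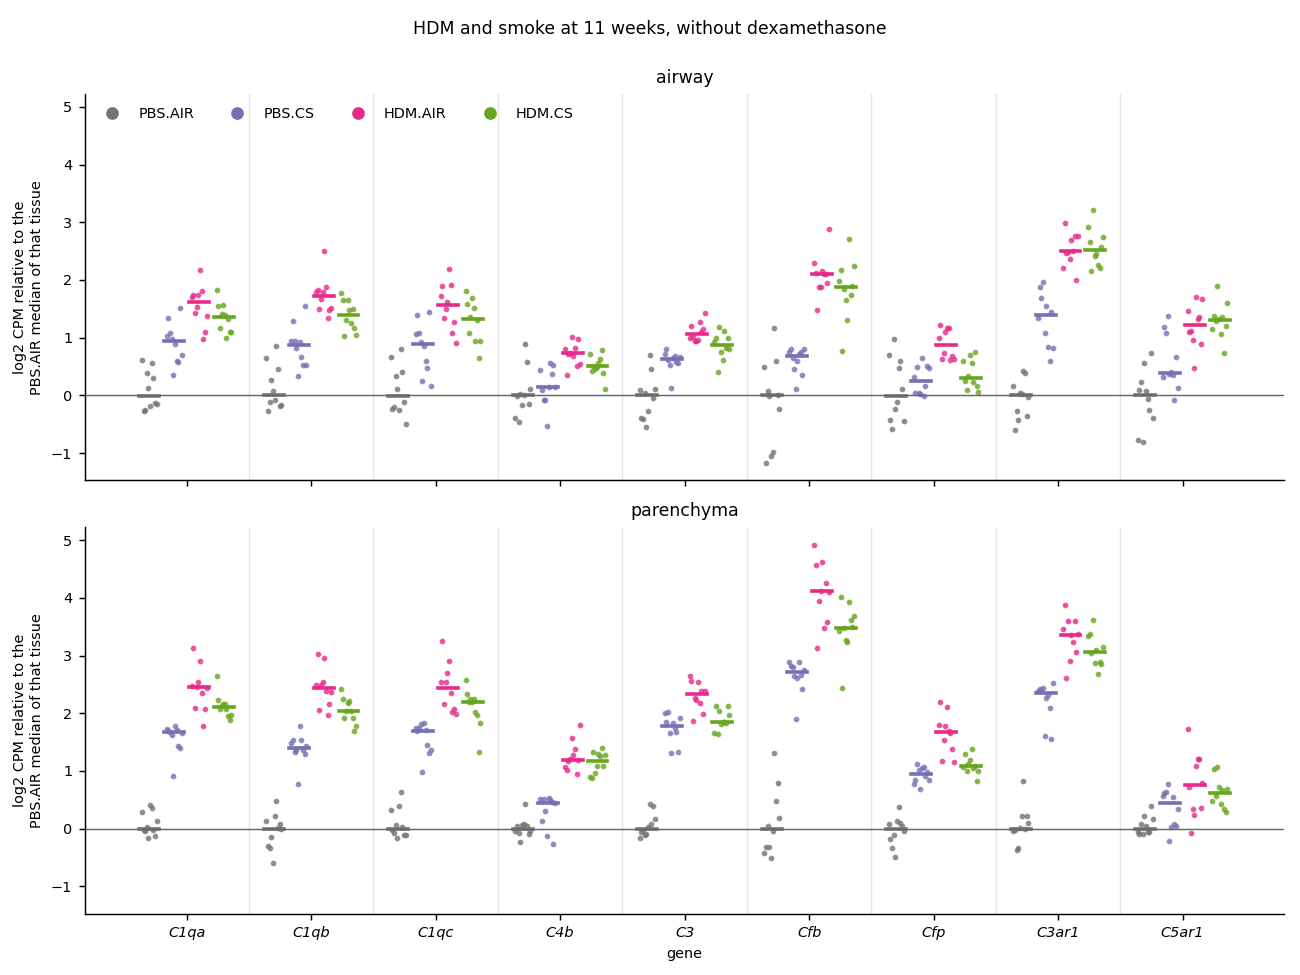
log2 CPM of each gene relative to the PBS.AIR median of the same tissue, airway above and parenchyma below, in the 4 groups at 11 weeks without dexamethasone; points are libraries (10 a group) and bars medians. In parenchyma the HDM.CS medians of Cfb (437 CPM) and C3 (1040.4 CPM) lie between those of PBS.CS and HDM.AIR.

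Dexamethasone-labelled mice had lower properdin in all 8 comparisons with untreated mice of the same exposure and tissue, and lower factor B in 7 of 8. Of 72 tests of the members, 26 passed, 25 of them downward, and the share of all genes called lower ran from 5.40% in HDM.CS parenchyma to 16.2% in HDM.AIR parenchyma, with 12.0% in PBS.AIR and 9.49% in PBS.CS parenchyma. In airway it was 6.85% in PBS.AIR, 16.0% in HDM.AIR, 6.60% in PBS.CS and 7.05% in HDM.CS. Members called lower numbered 2, 3, 2 and 3 in these airway comparisons and 3, 6, 5 and 1 in PBS.AIR, HDM.AIR, PBS.CS and HDM.CS parenchyma. The share of all genes called higher ran from 2.25% in HDM.CS airway to 12.5% in HDM.AIR airway. The glucocorticoid-induced transcripts were not higher in any of these comparisons, as given above.

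Cfp measured 29.4 to 60.9 CPM (median 42.4) in HDM.AIR and 8.96 to 37.03 CPM (median 13.2) in HDM.AIR.DEX parenchyma, with 9 of 10 treated libraries below every untreated library (log2FC -1.44 ± 0.18, adjusted p = 3.91e-11). In the matching airway groups it measured 34.6 to 52.3 CPM (median 41.3) and 9.95 to 38.3 CPM (median 14.9) (log2FC -1.29 ± 0.17, adjusted p = 1.64e-10). Groups were separate in PBS.AIR parenchyma, where Cfp measured 9.37 to 17.2 CPM (median 13.2) without and 5.72 to 8.35 CPM (median 6.90) with dexamethasone (log2FC -0.87 ± 0.23, adjusted p = 0.00271), and also in PBS.CS (log2FC -1.03 ± 0.19, adjusted p = 1.41e-05) and HDM.CS parenchyma (log2FC -0.89 ± 0.18, adjusted p = 0.000182). The share of all genes whose treated libraries all lay below was 2.30%, 1.08% and 1.09% in these 3 comparisons. In HDM.CS parenchyma, Cfp ran over 23.4 to 34.5 CPM (median 27.96) without and 11.8 to 21.5 CPM (median 16.7) with dexamethasone. In airway Cfp fell by 0.69 in PBS.AIR, 0.71 in PBS.CS and 0.65 in HDM.CS on the log2 scale, the first of which was not called with library quality weights.

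Cfb measured 183.5 to 612 CPM (median 303) in HDM.AIR.DEX parenchyma (log2FC -1.03 ± 0.22, adjusted p = 8.00e-05) and 241 to 673 CPM (median 403) in HDM.AIR.DEX airway (log2FC -0.80 ± 0.22, adjusted p = 0.00333). In the other airway comparisons it fell by 0.97 in PBS.AIR, 0.80 in PBS.CS and 0.77 in HDM.CS. In parenchyma it fell by 0.76 in PBS.CS and by 0.51 in PBS.AIR. The PBS.AIR call was lost in 9 of 160 fits without a library, and without a filter on low counts (adjusted p = 0.23). HDM.CS parenchyma did not pass (log2FC -0.46 ± 0.21, adjusted p = 0.199), although it did with library quality weights (log2FC -0.51, adjusted p = 0.0343). Even so, in parenchyma treated HDM mice kept Cfb far above untreated PBS.AIR mice, whose highest library had 96.97 CPM. In airway these groups overlapped. Untreated PBS.AIR airway libraries reached 366 CPM, while the lowest HDM.AIR.DEX and HDM.CS.DEX airway libraries had 241 and 257 CPM.

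C3 went in different directions by exposure. It measured 257 to 388 CPM (median 289) in PBS.AIR and 345 to 452 CPM (median 409) in PBS.AIR.DEX parenchyma. This rise (log2FC 0.41 ± 0.10, adjusted p = 0.000824) was the only upward call of the 72, and 10.6% of all genes were called higher in that comparison. In HDM.AIR.DEX parenchyma C3 measured 639.9 to 1529 CPM (median 892), a fall (log2FC -0.68 ± 0.11, adjusted p = 5.08e-07), and it also fell in HDM.AIR airway (log2FC -0.59 ± 0.12, adjusted p = 2.51e-05) and HDM.CS airway (log2FC -0.42 ± 0.12, adjusted p = 0.00872). The difference between the dexamethasone effect in HDM.AIR and in PBS.AIR, a comparison added after the data were seen, passed for C3 alone among the 9: -0.69 ± 0.16 in airway and -1.10 ± 0.15 in parenchyma, against 3.52% and 6.38% of all genes called lower.

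All calls of the C1q chains with dexamethasone were in parenchyma, where they fell by 0.51 (C1qb), 0.43 (C1qa) and 0.41 (C1qc) in HDM.AIR and by 0.58, 0.38 and 0.45 in PBS.CS. The difference between the tissues was not tested. C1qb in HDM.AIR airway (log2FC -0.37 ± 0.15, adjusted p = 0.0517) passed in 18 of 160 fits without a library, and with the higher filter on low counts (adjusted p = 0.0434). In PBS.AIR parenchyma, C1qb was called lower with library quality weights, edgeR and DESeq2 (adjusted p = 0.0162, 0.0451 and 0.0367) but not in the main fit. The HDM.AIR groups overlapped, and HDM.AIR.DEX parenchyma ran from 52.2 to 190.6 CPM for C1qb. Several of these calls sat at the threshold: the call of C1qc in HDM.AIR was lost in 99 of 160 fits without a library and under 6 of 8 other settings, that of C1qa in HDM.AIR without any of 4 libraries and with library quality weights, that of C1qa in PBS.CS in 10 fits and under 5 of 8 other settings, and that of C1qc in PBS.CS in 9 fits and without a filter on low counts. C4b and C3ar1 did not pass in any of the 8 comparisons, although C4b in PBS.AIR parenchyma (log2FC -0.28 ± 0.12, adjusted p = 0.0709) passed under 2 of 8 other settings. C5ar1 passed in PBS.AIR parenchyma alone, falling from 10.9 to 15.4 CPM (median 11.7) to 7.26 to 10.0 CPM (median 8.58) without overlap (log2FC -0.51 ± 0.18, adjusted p = 0.024). With library quality weights C5ar1 was also called in HDM.CS parenchyma, where it was higher (log2FC 0.33, adjusted p = 0.0343). It was called lower in HDM.AIR airway in 2 fits without a library and in HDM.AIR parenchyma in 1. Macrophage markers moved both ways in the 8 dexamethasone comparisons, with 0 to 4 of 10 lower and 0 to 4 higher. Their summed level, in which the most abundant markers weigh most, was higher in the median with dexamethasone in all 8. The medians were 9331 and 9368 CPM in PBS.CS and PBS.CS.DEX airway, and 7769 and 12472.5 CPM in PBS.AIR and PBS.AIR.DEX parenchyma. The sums ranged over 12744 to 21226 CPM in HDM.AIR and 17742.5 to 32192 CPM in HDM.AIR.DEX parenchyma. Alveolar type II markers were higher for 2 to 6 of 7. Of 7 interstitial macrophage and monocyte markers 1 to 3 were lower and at most 1 higher, and their summed level was lower in the median in all 8 comparisons, ranging over 341 to 505 CPM in HDM.AIR and 182.4 to 339.5 CPM in HDM.AIR.DEX parenchyma, without overlap, and over 468 to 667 and 231 to 469 CPM in PBS.AIR and PBS.AIR.DEX parenchyma. Of 5 eosinophil markers 1 to 4 were lower and none higher, with sums of 28.6 to 77.98 CPM in HDM.AIR and 11.3 to 44.6 CPM in HDM.AIR.DEX parenchyma. Markers of B cells and follicular dendritic cells were lower for 4 to 6 of 6. The part of these cells was not tested.

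**Figure D5:**
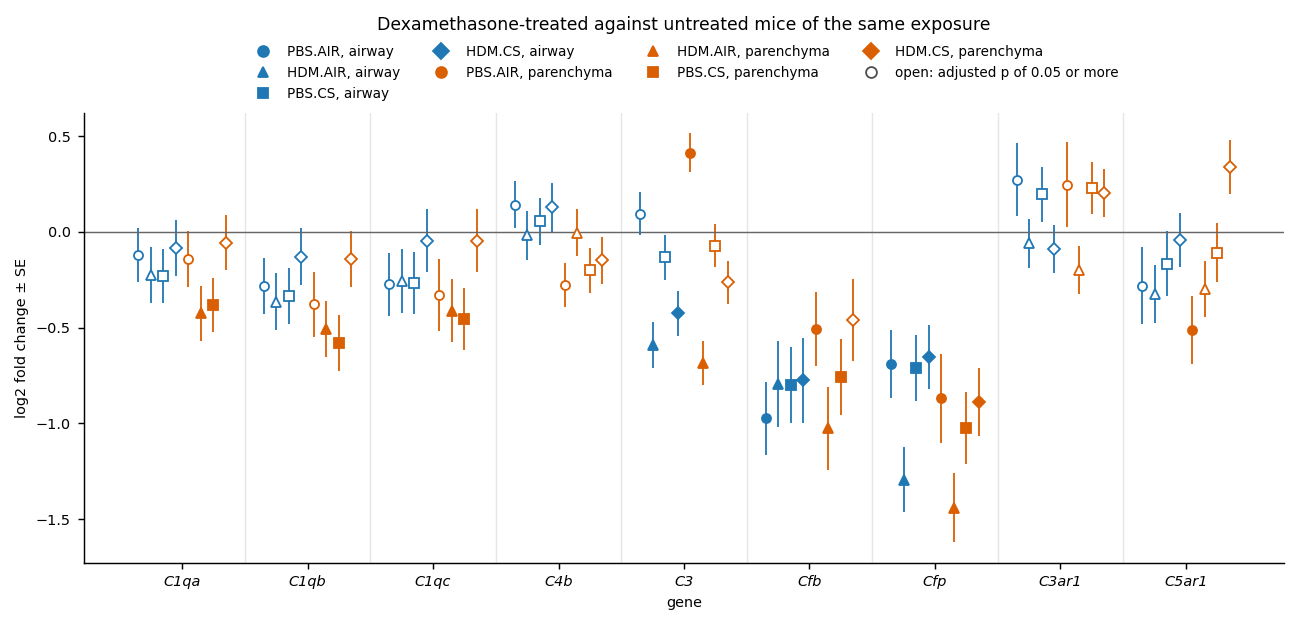
log2 fold change ± SE of dexamethasone-labelled against untreated mice of the same exposure at 11 weeks, airway in blue and parenchyma in orange, with a symbol for each exposure; open symbols have an adjusted p of 0.05 or more. All 8 Cfp values are filled and below 0, the lowest at -1.44, and C3 in PBS.AIR parenchyma is the only filled symbol above 0, at 0.41.

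Lists of 46 other complement genes (classical and lectin pathway, alternative and terminal pathway, regulators, receptors) were compared, of which 39 were tested at 3 weeks and 40 at 11 weeks. With HDM at 3 weeks, 14 rose and 16 fell in airway, near the shares of all genes of 34.1% and 40.5%, with a median log2FC of -0.13, and 17 rose and 14 fell in parenchyma, where 33.4% and 44.3% of all genes did, with a median of 0.15. At 11 weeks in air, 18 rose and 11 fell in airway and 21 rose and 4 fell in parenchyma, while 31.3% and 29.8% of all genes did in airway and 32.6% and 26.9% in parenchyma. Of the receptors, 5 of 6 rose in each tissue and at each time, led at 3 weeks by Itgax, Itgam and Itgb2, the chains of the complement receptors CR3 and CR4. In parenchyma at 3 weeks Itgax reached a median of 541 CPM against 49.8 (log2FC 3.35 ± 0.22, adjusted p = 2.62e-17), and Itgam 203.2 against 19.1 CPM (log2FC 3.28 ± 0.17, adjusted p = 1.87e-20). These integrin chains also serve leukocyte adhesion.

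Of the regulators, 9 of 15 were lower and 4 higher in each tissue at 3 weeks, where all genes too were called lower more often than higher. Vitronectin (Vtn), an inhibitor of pore assembly, was lower (log2FC -1.75 ± 0.21, adjusted p = 8.35e-10 in airway, log2FC -1.81 ± 0.21, adjusted p = 3.70e-10 in parenchyma). At 11 weeks in air 4 of 16 rose and 5 fell in airway, and 8 rose and 2 fell in parenchyma. Factor D (Cfd), the protease that cleaves factor B and an abundant adipocyte product, had a median of 124.6 CPM in PBS airway and 2.26 in PBS parenchyma at 3 weeks, and fell with HDM in airway at 3 weeks (log2FC -2.18 ± 0.40, adjusted p = 5.32e-06) and at 11 weeks (log2FC -2.81 ± 0.41, adjusted p = 9.13e-10). In parenchyma at 3 weeks Cfd also passed downward, to a median of 0.0972 CPM with overlap (log2FC -4.19 ± 1.92, adjusted p = 0.0447). Adipocyte markers fell with it, 6 of 6 in airway at both times, and the summed adipocyte markers in HDM airway at 3 weeks ranged from 9.87 to 193.6 CPM; their part was not tested. Component C5 (Hc) had a median of 237 CPM in PBS airway against 380.3 in PBS parenchyma at 3 weeks, the reverse of C3. It rose with dexamethasone in PBS.AIR airway (log2FC 1.18 ± 0.21, adjusted p = 6.37e-06) and parenchyma (log2FC 0.94 ± 0.22, adjusted p = 0.000657). Hc also rose in HDM.AIR parenchyma (log2FC 0.67 ± 0.22, adjusted p = 0.0161). The complement receptor Cr2, carried by B cells and follicular dendritic cells, fell with dexamethasone in all 8 comparisons, among them by 2.42 in HDM.AIR airway and 2.38 in HDM.AIR parenchyma, where all 6 B cell and follicular dendritic cell markers were lower too. Under smoke without HDM, 8 of the 40 rose and none fell in airway, against 7.66% and 6.03% of all genes, and 13 rose and 5 fell in parenchyma, against 17.7% and 18.2%. Clusterin (Clu), another inhibitor of pore assembly, fell with dexamethasone in HDM.AIR airway (log2FC -0.94 ± 0.18, adjusted p = 1.41e-05) and parenchyma (log2FC -1.003 ± 0.18, adjusted p = 1.80e-06).

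Across the mean log2 CPM of the 20 groups, the members fell into patterns of differing likeness, given as a description since the groups share normalization and tissue makeup. The C1q chains had Pearson correlations of 0.996 to 0.998 with each other, and of 0.894 to 0.937 over all libraries after each group's mean was removed. C3 and Cfb had 0.935 over group means and 0.736 within groups. C4b was the least like the rest, with 0.0640 to C5ar1 and 0.463 to C3ar1 over group means. Among 15201 genes ranked by the same measure, those with a pattern most like the C1q chains included Ms4a7, a membrane protein gene of macrophages (0.980 for C1qa, 0.978 for C1qb and 0.980 for C1qc), Apoe for C1qa and C1qc (0.979 and 0.976) and the transcript AI427809 for C1qb (0.980). The genes most like C3 were Mgat4a, Egln3 and Coro2a (0.972 to 0.955). For Cfb they included Tnfrsf8 (0.975) and AI427809 (0.967), and for Cfp they were Cd86, Plbd1 and Vcam1 (0.972 to 0.951). C3ar1 was most like Bach2os, Zc3h12a and the scavenger receptor gene Msr1 (0.979 to 0.977), and C5ar1 most like Skap2, the G-CSF receptor gene Csf3r and Fgr (0.966 to 0.964). C4b had the weakest matches, 4930572O03Rik, Gm17019 and Ankrd13d (0.959 to 0.934).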

How the data were processed

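RNA was sequenced from the airway and the lung parenchyma of mice, 203 libraries in 20 groups of week, tissue and exposure, with 43 libraries at 3 weeks and 160 at 11 weeks. The authors deposited a table of estimated counts per gene; 20.3% of its non-zero values were not whole, and values were rounded. Per the labels, the submitters' processing notes name bcl2fastq 2.20.0.422, STAR 2.5.1b, RSEM 1.2.31, kallisto 0.44.0 and the mm10 genome; which program produced the counts is not given in the sources used here. Multi-mapped reads are shared out by such programs, which bears on C4b and its copy C4a.

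Of the 43346 identifiers, 42462 matched a GENCODE M21 gene after the version was removed. Genes were kept when at least 9 libraries reached the CPM that equals 10 counts in the median library. Counts were scaled by TMM (edgeR 4.0.16) and fitted with limma-voom (limma 3.58.1, R 4.3.3) with a mean for each group: 17377 genes at 3 weeks, 18250 at 11 weeks and 18528 over all libraries for the difference between times. P-values were two-sided and adjusted over all genes tested by the Benjamini-Hochberg method. Other settings were edgeR's quasi-likelihood test, DESeq2 1.42.0 and its size factors, library quality weights, other filters, each tissue fitted on its own, all libraries in one fit, C4a and C4b summed, and each library left out. The fits were tested on simulated data.

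All 9 members are named in every comparison; of 46 other complement genes, those with the 3 largest changes in each direction among the calls of a comparison could be named, and for likeness the 3 genes with the highest Pearson correlation to a member over the 20 group means of log2 CPM, among genes with a mean of at least 1 CPM. A gene picked by the likeness rule is not reported here. Members and lists were chosen with earlier results of these data known. The labels do not number the mice, so p-values measure only the spread between these libraries, which may in part be technical.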

Additional observations from a re-analysis of the deposited data

Results flagged for a closer look

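In groups of 10 libraries, the gap of the highest or lowest library to the nearest other exceeded Dixon's critical value for 10 combinations of gene and group, in 7 libraries. Chance alone flags about 1 in 20 groups, which over the 18 groups and 9 genes tested gives about 8.1 flags. The libraries are named by their group and replicate, and the values are CPM.

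PBS.CS parenchyma replicate 5 was low for 3 genes: C1qa had 58.5 CPM where the other libraries ran from 82.1 to 106.97, C1qb 39.5 where they ran from 56.4 to 79.2, and Cfb 146.5 where they ran from 209 to 289.9. PBS.AIR parenchyma replicate 7 was high for C4b, 96.5 against 60.8 to 75.3, and for C3ar1, 9.28 against 4.07 to 6.12. HDM.AIR airway replicate 6 was high for C1qb, 213 against 95.6 to 137.7. HDM.CS parenchyma replicate 1 was high for C1qa, 195.03 against 114.3 to 145.6, and replicate 3 of the same group low for Cfb, 212 against 366 to 628. PBS.CS airway replicate 5 was low for C3, 814 against 1082 to 1301. HDM parenchyma replicate 4 at 3 weeks was high for C5ar1, 78.9 against 26.5 to 46.1.

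Differences between groups in the same contrast were tested 72 times by limma-voom, and 41 had an adjusted p under 0.05. The HDM effect at 3 weeks was smaller in airway than in parenchyma, by a log2 difference of -1.89 for Cfb, -1.32 for C1qa, -1.31 for C1qb, -1.21 for C1qc, -1.09 for C3, -1.04 for C3ar1 and -0.91 for Cfp. At 11 weeks in air it was again smaller in airway, by -1.80 for Cfb, -1.16 for C3, -0.95 for C1qc, -0.94 for C1qb, -0.94 for Cfp, -0.92 for C1qa, -0.68 for C3ar1 and -0.62 for C4b. The HDM effect in airway was smaller under smoke than in air, by -1.37 for C3ar1, -1.06 for C1qb, -1.03 for C1qa, -0.998 for C1qc, -0.95 for Cfb, -0.86 for C3 and -0.70 for Cfp. The corresponding values in parenchyma were -3.17 for Cfb, -2.39 for C3ar1, -2.13 for C3, -1.88 for C1qb, -1.87 for C1qc, -1.82 for C1qa, -1.57 for Cfp and -0.44 for C4b.

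Between 11 and 3 weeks the HDM effect in airway differed by 0.93 for C4b and -0.52 for C1qb. In parenchyma it differed by 1.12 for C4b, -1.33 for C5ar1, -0.95 for C1qb, -0.79 for C1qa, -0.65 for C1qc, -0.58 for Cfp and -0.39 for C3. The dexamethasone effect on C3 in HDM.AIR mice lay below that in PBS.AIR mice, by -0.69 in airway and -1.10 in parenchyma.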

How the results depend on the processing

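The 9 other settings were run on the 252 tests of the 9 genes, except that fitting each tissue on its own gave 216 of them, all libraries in one fit 234 and the sum of C4a and C4b the 28 tests of C4b, and no call among those run reversed its sign. Calls lost and gained numbered 9 and 1 without a filter on low counts, 3 and 2 with a filter at a CPM of 10, 3 and 1 with DESeq2 size factors, 6 and 5 with edgeR, 6 and 5 with DESeq2, 3 and 13 with library quality weights, 2 and 1 with each tissue fitted on its own, and 4 and 0 with all libraries in one fit. Summing C4a and C4b changed no call of C4b. In no comparison family did the count of calls move by more than 1.5 times under these settings. The call counts ran from 22 to 28 for dexamethasone (26 in the main fit) and from 6 to 13 for the difference between 11 and 3 weeks (9 in the main fit), the latter the widest range. Settings moved the median log2 fold change of all genes by at most 0.11.

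Leaving out each library in turn changed 27 of the 252 calls in at least 1 fit, 15 lost and 12 gained, with none reversed. Counts of calls then ran from 3 to 7 for smoke in HDM mice (5 in the main fit), the 3 being reached without HDM.AIR parenchyma replicate 6. No paired analysis was possible because the labels give no number that ties libraries of the same mouse, or libraries of different groups, to each other. No value could be given without libraries that stood apart, since none lay more than 5 median absolute deviations below the others. At 10 to 12 libraries a group, the lowest count of any member was 68 (Cfp). The size of counting error beside the spread between libraries was not measured.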
